A study of Mus musculus with 4 samples.

Results

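Expression of 10 genes, the keratin genes Krt8, Krt18, Krt19 and Krt20 and the wound-associated epithelial genes Sprr1a, Anxa1, Anxa8, Emp1, Plet1 and Clu, was described in the surface and crypt epithelium of mouse colon. The genes were chosen by name and taken from probe sets whose only annotated gene symbol was theirs, which gave exactly 1 probe set for each of the 10 genes, out of 19938 genes on the array. All samples came from male C57BL/6 mice aged 11 weeks that ate a high-fat, low-calcium diet, with 40% of its energy as fat, for 14 days. The groups were heme surface and heme crypt, from 3 mice whose diet also held heme at 0.5 µmol/g, and control surface and control crypt, from 4 mice that ate the diet without heme. Surface and crypt cells were cut from rolls of frozen colon by laser capture microdissection, RNA was pooled within each group, and each of the 4 pools was measured on 1 array. The 2 pools of each diet came from the same animals, and single animals cannot be told apart within a pool.

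Keratins are the intermediate filament proteins of epithelial cells. Krt8 encodes the type II keratin of simple epithelium, which pairs with the type I keratins encoded by Krt18, Krt19 and Krt20, and Krt20 marks differentiated cells of the intestinal lining. When the colonic lining is injured, a thin sheet of wound-associated epithelial cells spreads over the gap, and in mouse colon these cells are known for genes such as Sprr1a, Anxa1, Emp1 and Plet1. Clu, which encodes the secreted chaperone clusterin, marks an injury-induced stem cell state in the mouse intestine.

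Values are log2 expression values, so a difference of 1 is 2-fold. With 1 array per group there was no replicate and no test, and the spread between mice is unknown for every value below. A gene was called higher or lower when it differed at least 2-fold and 1 or more of the arrays compared stood at or above 5.75, the floor set at the median over all genes and arrays. All 10 genes passed this floor in each comparison, and Sprr1a on the control crypt array was the 1 value of theirs below it. Levels of different genes come from different probes and are not compared with each other. A lower level in a pool can mean fewer cells of a type or less RNA per cell, which cannot be told apart here.

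The microdissected compartments could be told apart by their markers. Markers of surface colonocytes were called higher in surface cells for 14 of 15 genes on heme and for 13 on the control diet. Over all genes, 15.3% and 12.0% were called higher. After centring the arrays on pan-epithelial genes, 9 markers were called higher on each diet, against 4.13% and 2.65% of all genes. Mitotic genes, markers of the dividing crypt, were called lower in surface cells for all 15 measured, on both diets. Over all genes, 16.5% were called lower on heme and 13.5% on the control diet. After centring on ribosomal protein genes, 14 mitotic genes were called lower on heme and 5 on the control diet, against 3.03% and 1.16%. Markers of squamous epithelium were measured for 11 genes, and 10 of them lay below the floor on all 4 arrays, among them Krt5, Krt14 and Trp63. The exception, Serpinb5, which is also expressed in other epithelia, had 8.61 in heme surface, 8.35 in control surface, 7.81 in heme crypt and 7.83 in control crypt cells. Of 7 mesothelial genes, 6 lay below the floor throughout, the exception being the keratin gene Krt7.

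Sequences upstream of 4 of the genes are given here because these genes had the 4 largest heme differences of the 10. Promoter windows from RefSeq (build GRCm38.p6) were found for 8 of the 10 genes, the others being Krt19 and Clu. Each run holds the 250 bases before the annotated start of the gene, 5′ to 3′ on the gene's strand. Capitals mark matches, on either strand, to the letters TGANTCA (bound by AP-1, a stress- and growth-responsive factor), GGAATG (bound by TEAD factors, the partners of YAP), TGACNNNGC (the antioxidant response element bound by NRF2) and TATAAA (the TATA box).
Sprr1a, chr3:92485882-92486131, minus strand: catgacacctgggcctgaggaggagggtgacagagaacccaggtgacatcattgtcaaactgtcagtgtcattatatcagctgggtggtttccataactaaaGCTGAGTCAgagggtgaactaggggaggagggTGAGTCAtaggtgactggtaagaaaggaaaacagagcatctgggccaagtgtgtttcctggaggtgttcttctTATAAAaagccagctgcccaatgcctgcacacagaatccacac
Krt20, chr11:99438154-99438403, minus strand: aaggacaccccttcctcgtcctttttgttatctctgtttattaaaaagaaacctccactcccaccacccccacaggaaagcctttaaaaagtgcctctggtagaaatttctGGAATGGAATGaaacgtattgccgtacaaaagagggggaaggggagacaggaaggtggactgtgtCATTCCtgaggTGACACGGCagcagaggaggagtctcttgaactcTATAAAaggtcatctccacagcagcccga
Anxa8, chr14:34085729-34085978, plus strand: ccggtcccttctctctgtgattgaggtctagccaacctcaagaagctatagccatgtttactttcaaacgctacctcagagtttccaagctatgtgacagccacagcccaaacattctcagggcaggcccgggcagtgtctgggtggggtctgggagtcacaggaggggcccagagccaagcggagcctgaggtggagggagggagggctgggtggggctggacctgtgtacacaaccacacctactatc
Plet1, chr9:50494275-50494524, plus strand: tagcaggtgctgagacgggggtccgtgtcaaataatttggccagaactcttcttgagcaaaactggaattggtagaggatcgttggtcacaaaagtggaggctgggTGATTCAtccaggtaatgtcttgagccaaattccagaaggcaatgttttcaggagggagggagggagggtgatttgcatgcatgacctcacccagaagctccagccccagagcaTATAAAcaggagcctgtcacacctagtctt

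The Sprr1a window held AP-1 letters at -146 to -140 and at -116 to -110, counted back from -1 at the base before the start. The first of these overlapped its antioxidant response element letters at -148 to -140. In the Krt20 window, TEAD letters stood at -139 to -134, at -134 to -129, where the matches share a base, and at -74 to -69, and antioxidant response element letters at -63 to -55. The Plet1 window held AP-1 letters at -144 to -138. None of the 4 motifs was in the Anxa8 window. A TATA box stood at -43 to -38 in Sprr1a, at -29 to -24 in Krt20 and at -30 to -25 in Plet1. Of the 32851 mouse windows of this length, 6.75% held the AP-1 letters, 12.6% the TEAD letters, 10.2% the antioxidant response element and 12.4% the TATA box. These matches describe the sequence, and binding was not measured.

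For the keratin genes Krt8, Krt18 and Krt19, no heme difference reached 2-fold in either compartment. Krt8 had 13.33 in heme surface, 13.13 in control surface, 12.20 in heme crypt and 12.09 in control crypt cells, so both surface arrays lay above both crypt arrays. Krt18, the partner whose gene lies next to Krt8 on chromosome 15, with no protein-coding gene between them in the GRCm38.p6 gene table, had 10.94 in heme surface, 10.92 in control surface, 10.14 in heme crypt and 10.41 in control crypt cells. Its heme difference was 0.02 in surface cells and -0.26 in crypt cells. Krt19, which encodes the smallest of these keratins, had 12.94 in heme surface, 12.58 in control surface, 11.78 in heme crypt and 11.82 in control crypt cells. The heme differences of Krt8 and Krt19 lay between -0.04 and 0.36.

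Krt8 was higher in surface cells by 1.13 on heme and by 1.04 on the control diet, and Krt19 by 1.16 and 0.76. These sizes were close to the general difference of epithelial genes, since the differences of 17 pan-epithelial genes such as Epcam and Cdh1 had medians of 0.81 on heme and 0.95 on the control diet. Centring the arrays on the median level of those genes shifted every gene's difference by -1.19 on heme and -1.30 on the control diet. Krt8 then differed by -0.063 on heme and -0.26 on the control diet, and Krt19 by -0.031 and -0.54. This centring shifts by more than the median difference of the 17 genes, which themselves then had medians of -0.38 and -0.35. Of the 17, 6 were then called lower and 0 higher on each diet. The direction for these keratins thus depends on the scaling chosen. The genes with profiles most like that of Krt8 were Ubxn2a (0.025), the chloride channel gene Clic4 (0.029) and the catenin gene Ctnna1 (0.029), where the number is the root mean square difference over the 4 arrays after each gene is centred on its mean. For Krt19 they were Itgb4 (0.017), encoding an integrin subunit that links keratin filaments to the basement membrane, Abhd1 (0.020) and Zfp217 (0.026). Pramel12 (0.019), Relch (0.019) and Mir199a-1 (0.021) were nearest to Krt18. Mir199a-1 reached the floor on the heme surface array alone, at 5.79.

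**Figure D1:**
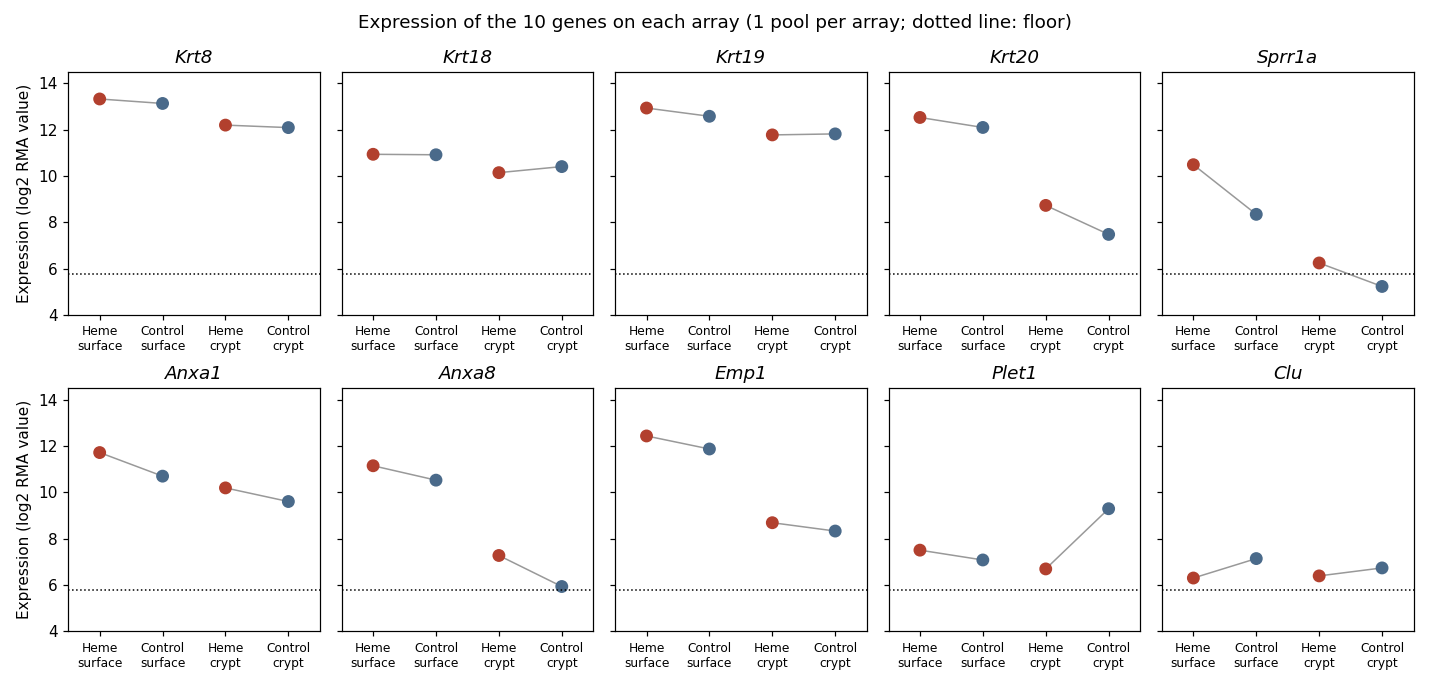
Expression of each of the 10 genes as log2 RMA values (vertical axis) on the 4 arrays (horizontal axis), 1 point per pooled array, with heme in red and control in blue, grey lines joining the diets of a compartment, and the floor of 5.75 dotted. Krt20, Sprr1a, Anxa8 and Emp1 are high on both surface arrays, and Plet1 is highest on the control crypt array, at 9.29.

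Krt20, the keratin of differentiated cells, had a large difference by position and a heme difference that was larger in the crypt pool. It had 12.53 in heme surface and 12.10 in control surface cells, and 8.73 in heme crypt against 7.47 in control crypt cells. Surface cells were thus above crypt cells by 3.80 on heme and by 4.62 on the control diet. On the control diet this was the 16th highest difference of 10864 genes. Heme crypt cells had 1.25 more Krt20 than control crypt cells (2.38-fold), while the surface pools differed by 0.43.

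Anxa8, which encodes a calcium-dependent membrane-binding annexin, followed Krt20 closely. Its values were 11.14 in heme surface and 10.52 in control surface cells, and 7.27 in heme crypt against 5.92 in control crypt cells. The heme difference was 1.34 in crypt cells (2.53-fold) and 0.62 in surface cells, and surface cells exceeded crypt cells by 3.88 on heme and by 4.60 on the control diet. After each gene was centred on its mean over the 4 arrays, Krt20 and Anxa8 differed by a root mean square of 0.08 on the log2 scale, the smallest value of any pair of the 10 genes. Krt8 and Krt19 came next, at 0.10. Outside the 10 genes, Cyp4f14 was the gene closest to both Krt20 and Anxa8, at 0.12 for each. The next closest to Krt20 were the chloride exchanger gene Slc26a3 (0.18) and Cyp2d13 (0.20), and to Anxa8 the kinase gene Sgk2 (0.19) and the ecto-nucleotidase gene Nt5e (0.22). This likeness was taken over 4 arrays and 10792 genes, and is a description of profiles alone.

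Sprr1a, a small proline-rich protein gene whose product is cross-linked into the envelope of squamous cells, had the largest heme difference of the 10 genes in surface cells. It had 10.49 in heme surface cells against 8.34 in control surface cells, and 6.24 in heme crypt cells against 5.22 in control crypt cells. Heme values lay above control values in both compartments. The difference of 2.15 in surface cells (4.42-fold) was the 67th highest of 10282 genes. In crypt cells it was 1.02, from a control value below the floor, and it became 0.63 when 32 was added to the values before taking logs, which ends the 2-fold call. Surface cells exceeded crypt cells by 4.25 on heme and by 3.12 on the control diet. The heme difference was 1.13 larger in surface than in crypt cells. The profiles most like that of Sprr1a were those of the alkaline phosphatase gene Alpi (0.16), the amino acid transport subunit gene Slc3a1 (0.19) and the retinol-binding protein gene Rbp2 (0.20).

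Few other genes of the cornified envelope were measured above the floor. Of 14 measured, 11 lay below the floor on all 4 arrays, including the transglutaminase gene Tgm1, Ivl and Sprr1b. The probe sets of the Sprr2 genes are uncertain, because these genes are near-identical copies. Of these, Sprr2d was called higher in surface cells on heme, by 1.22. It had 5.91 in heme surface cells, just above the floor, and 4.69 in heme crypt cells, below it. The call was lost when 32 was added to the values before taking logs. Tgm3, which encodes a cross-linking transglutaminase, had 11.48 in heme surface against 12.63 in control surface cells, and 7.19 in heme crypt against 8.64 in control crypt cells. Like Sprr1a, it was higher in surface cells, by 4.29 on heme and by 3.99 on the control diet. With heme it was lower in both comparisons, at -1.16 and -1.45, while Sprr1a was higher.

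Anxa1 encodes annexin A1, a phospholipid-binding protein known to limit inflammation and to promote mucosal repair. It had 11.71 in heme surface against 10.69 in control surface cells, and 10.19 in heme crypt against 9.60 in control crypt cells. Heme pools had more Anxa1 in both compartments, by 1.02 in surface cells (2.03-fold) and by 0.59 in crypt cells. The surface difference sat at the edge of the 2-fold size and was 0.87 after cyclic loess. Surface exceeded crypt cells by 1.53 on heme and by 1.10 on the control diet, but by 0.34 and -0.21 after centring on pan-epithelial genes. Its nearest profiles were those of the transcription factor gene Ovol1 (0.055), Akr1c13 (0.081) and Cript (0.091).

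Other annexin genes differed by less than Anxa1 with heme in surface cells. Of 12 annexins and S100 partner genes, 9 reached the floor in surface cells and 8 of these were above 0 on heme. Of the 9, 1 was called higher, against 3.62% of all genes, and the median was 0.73 against -0.02 over all genes tested. The called gene was S100a11, whose product binds annexin A1, with 10.83 in heme surface against 8.72 in control surface cells. In crypt cells it had 9.84 on heme against 9.64 on the control diet. Anxa4 differed by 0.78 and Anxa3 by 0.76 in surface cells, below the 2-fold size. In crypt cells, 10 of the 12 genes reached the floor, none was called, and the median was 0.15 against 0.01 over all genes.

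Emp1, which encodes a membrane protein of the PMP22 family, differed strongly by position and by less than 2-fold with diet. It had 12.43 in heme surface, 11.87 in control surface, 8.68 in heme crypt and 8.32 in control crypt cells. Both surface values lay over 3 log2 units above both crypt values, with differences of 3.75 on heme and 3.55 on the control diet. The heme differences were 0.56 in surface and 0.36 in crypt cells. Its family member Pmp22 was likewise higher in surface cells, by 3.57 on heme and 3.67 on the control diet, whereas Emp2 was lower, by -2.18 and -1.85. The profiles nearest to Emp1 were the enolase gene Eno3 (0.05), the iron exporter gene Slc40a1 (0.08) and Myzap (0.11).

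**Figure D2:**
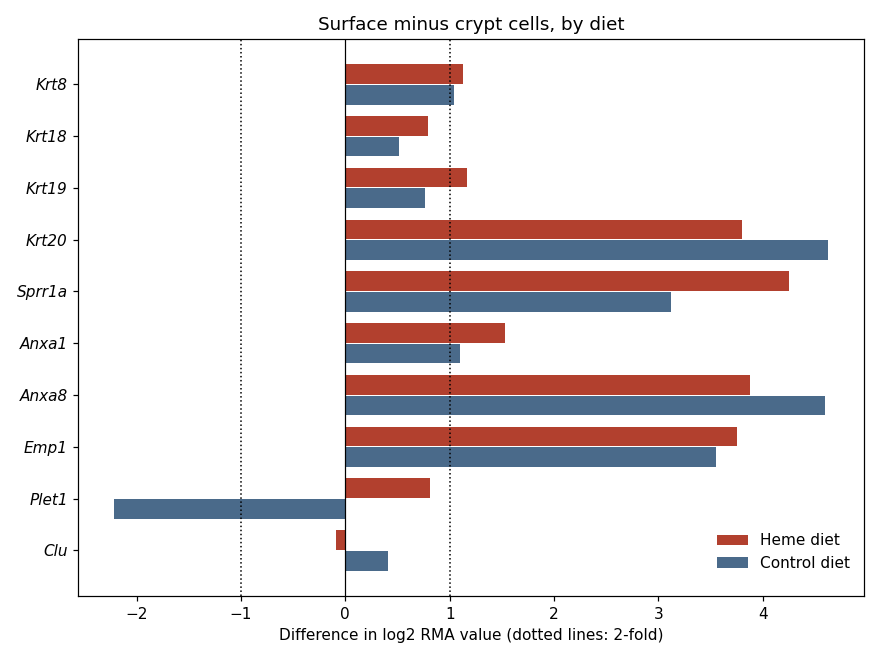
Surface minus crypt difference of each of the 10 genes, in log2 RMA values (horizontal axis), with the heme diet in red above the control diet in blue and dotted lines at 2-fold. Krt20, Sprr1a, Anxa8 and Emp1 exceed 3 on both diets, and Plet1 is at 0.81 on heme and at -2.22 on the control diet.

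Plet1 stood apart from the other 9 genes. It encodes a surface glycoprotein first known from the placenta and found on wound-associated epithelium of mouse colon. Its level was 7.50 in heme surface cells and 7.07 in control surface cells, and 6.69 in heme crypt cells against 9.29 in control crypt cells. The control crypt pool was the highest of the 4 and the heme crypt pool the lowest. In crypt cells Plet1 differed by -2.60 on heme relative to control (6.07-fold lower), the 4th lowest of 10491 genes, while in surface cells it differed by 0.42 in the other direction. Across the scaling alternatives the crypt difference ranged from -2.63 to -2.28.

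Surface minus crypt was 0.81 for Plet1 on heme and -2.22 on the control diet. The heme value changes sign with the scaling, to -0.38 after centring on pan-epithelial genes, while the control value stayed below 0, between -3.52 and -0.99. The heme difference in surface cells exceeded that in crypt cells by 3.03, the 12th highest of 11147 genes. No gene matched its profile closely: the nearest were Car8, a carbonic anhydrase-related gene, at a root mean square of 0.44, the epoxide hydrolase gene Ephx4 at 0.46 and Abi3bp at 0.49. Ephx4 reached the floor on the control crypt array alone.

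Several cell type markers differed in the same crypt pool in which Plet1 was low. Mitotic genes were higher in heme crypt cells for 13 of 15, with all 15 above 0, a median of 1.42, and mean levels of 8.70 in heme crypt against 7.33 in control crypt cells. All 13 smooth muscle and fibroblast markers were below 0 for heme against control, with 3 called lower, a median of -0.72, and mean levels of 7.63 in heme crypt against 8.44 in control crypt cells. All 8 endothelial markers were below 0, with 1 called lower and a median of -0.70, and of 7 leukocyte markers at or above the floor 6 were below 0, with 3 called lower and a median of -0.63. Of 8 goblet cell markers at or above the floor, 7 were below 0, none was called, and the median was -0.47. Of 13 crypt base markers 12 were below 0, with a median of -0.31 and Lgr5 the 1 called lower, at -1.07. Over all genes tested, 1.78% were called higher and 1.19% lower in this comparison. When 32 was added to the values before taking logs, no endothelial, leukocyte or crypt base marker was called lower. With that change 2 smooth muscle and fibroblast markers were still called lower, and 13 mitotic genes higher. Centring on ribosomal protein genes also left no leukocyte or crypt base marker called lower. For the 17 pan-epithelial genes the median was -0.06. The part of these shifts in the Plet1 result was not tested.

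**Figure D3:**
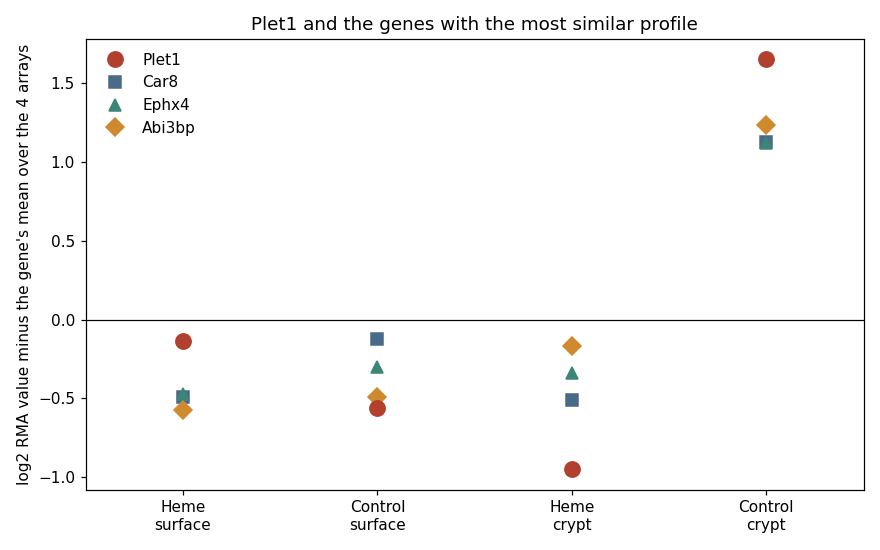
Log2 RMA values of Plet1 and of the 3 genes nearest to it, each minus its own mean over the 4 arrays (vertical axis), on the 4 arrays (horizontal axis), 1 point per gene and array. Plet1 has its lowest value in heme crypt cells, at a difference of -2.60 from control crypt cells, and the other 3 genes were chosen for their likeness to this profile.

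Clu was the 1 gene of the 10 below 0 for heme in surface cells. It had 6.29 in heme surface against 7.13 in control surface cells, and 6.38 in heme crypt against 6.73 in control crypt cells, a narrow range just above the floor. The differences of -0.84 and -0.34 did not reach 2-fold. Surface and crypt cells differed by -0.09 on heme and by 0.40 on the control diet, which became 1.06 and 1.63 after centring on ribosomal protein genes and -1.28 on heme after centring on pan-epithelial genes. The apoptosis gene Bmf (0.02), the prostaglandin receptor gene Ptger4 (0.03) and Setd7 (0.04) had the nearest profiles.

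Taking the 10 genes by comparison, heme against control in surface cells called 2 higher, Sprr1a and Anxa1, and none lower, against 3.62% of all genes called higher and 2.01% lower. Of the 10, 9 were above 0, with a median of 0.43 against -0.02 over 10282 genes. In crypt cells 3 were higher, Krt20, Sprr1a and Anxa8, against 1.78% of all genes, and 1 was lower, Plet1, against 1.19%. Their median was 0.23 against 0.01 over all genes tested. The difference between the heme effects was at least 2-fold for 2 genes, Sprr1a and Plet1, both above 0, against 3.29% of all genes, and none of the 10 was that far below 0, against 2.17%. For Plet1 the effects had opposite signs, and that in crypt cells was the larger in size.

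Krt20, Anxa8 and Sprr1a were higher in heme crypt cells together with some markers of surface colonocytes. Of 15 such markers, 5 were called higher in heme crypt cells and none lower, against 1.78% and 1.19% of all genes. The mean level of the 15 was 9.51 in heme crypt against 8.94 in control crypt cells. The 4 with the largest differences were Aqp8, Slc9a3, Car1 and Slc26a3. Aqp8, a water channel gene, differed by 2.55, the sodium-proton exchanger gene Slc9a3 by 2.05, Car1 by 1.70 and Slc26a3 by 1.22. Over the 14 at or above the floor, 10 were above 0 and 4 below, and the median was 0.10. Emp1 differed by 0.36 in crypt cells. Its surface minus crypt difference was 3.75 on heme and 3.55 on the control diet, against 3.80 and 4.62 for Krt20. Mitotic genes, as given above, were also higher in the heme crypt pool. The part of these markers in the crypt result was not tested.

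**Figure D4:**
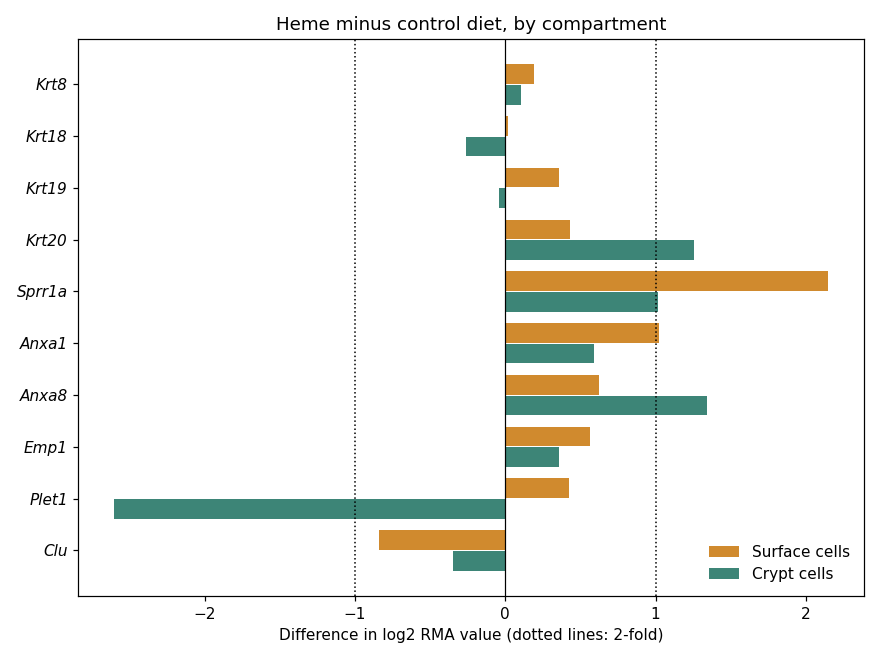
Heme minus control difference of each of the 10 genes, in log2 RMA values (horizontal axis), with surface cells in orange above crypt cells in green and dotted lines at 2-fold. Sprr1a and Anxa1 pass 2-fold in surface cells, Krt20, Sprr1a and Anxa8 in crypt cells, and Plet1 is at -2.60 in crypt cells.

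More of the 10 genes passed 2-fold by position than by diet. On heme 7 were higher in surface cells, against 15.3% of all genes, and none was lower, against 16.5%. On the control diet 6 were higher, against 12.0%, and 1, Plet1, was lower, against 13.5%. The medians were 1.34 on heme and 1.07 on the control diet, against -0.05 over all genes for both. These counts and medians move with the scaling: centring on ribosomal protein genes, which shifts the median of all genes by 1.16 on heme and 1.23 on the control diet, gave 10 and 9 higher and none lower, against 55.4% and 59.3% of all genes called higher, and medians of 2.50 on heme and 2.30 on the control diet. Centring on pan-epithelial genes, which shifts it by -1.19 and -1.30, gave 4 higher and 1 lower on each diet, and medians of 0.15 and -0.23. With that centring 4.13% of all genes were called higher and 61.2% lower on heme, and 2.65% higher and 68.8% lower on the control diet. Krt20, Sprr1a, Anxa8 and Emp1 differed by at least 1.81 with surface higher under every scaling run.

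Genes of related groups were read beside these. Of 12 further keratin genes, 9 lay below the floor on all 4 arrays, among them Krt17 and Krt6a, which are induced in wounded skin. Krt7 had 8.85 in heme surface, 8.44 in control surface, 9.19 in heme crypt and 9.32 in control crypt cells. None of these keratins was called in any comparison. Of 11 genes of desmosomes and plakins, which anchor keratin filaments at the cell membrane, none was called with heme in either compartment. Their medians for heme were 0.27 in surface and -0.05 in crypt cells. By position, 7 were higher and 1 lower in surface cells on each diet. Over all genes, 15.3% were higher and 16.5% lower on heme, and 12.0% and 13.5% on the control diet. The linker gene Plec was at 2.30 on heme and 1.88 on the control diet, and the lower gene was Pkp1, at -1.84 and -1.52. After centring on pan-epithelial genes these counts were 1 higher and 2 lower on heme, and none higher and 3 lower on the control diet.

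Of 8 measured genes of fetal-like and regenerative epithelium, 6 reached the floor in surface cells and 2 were called higher on heme, against 3.62% of all genes. The median was -0.02 over the 8 and 0.57 over the 6 at or above the floor, and 4 of the 6 were above 0. Plaur, the receptor of urokinase, had 9.55 in heme surface against 6.99 in control surface cells, and 6.13 in heme crypt against 5.50 in control crypt cells. Ly6d had 7.64 in heme surface against 5.48 in control surface cells, and 5.68 in heme crypt against 5.05 in control crypt cells, all but the first of these values being below the floor. Il1rn, the interleukin-1 receptor antagonist gene, differed by 1.00 in surface cells, just under 2-fold, and the integrin subunit gene Itga2 by -0.84. None of the list was called with heme in crypt cells, and Il33 and Msln lay below the floor on all 4 arrays.

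The 15 measured target genes of YAP, a coactivator active in epithelial regeneration, were split with heme in surface cells, with 6 above 0 and 5 below of those at or above the floor, and mostly below 0 in crypt cells, with 2 above and 8 below. With heme in surface cells 1 of 11 at or above the floor was called higher, against 3.62% of all genes. This was Ereg, an EGF receptor ligand gene, which had 8.55 in heme surface against 5.01 in control surface cells. The control surface value lay below the floor, as did 5.04 in heme crypt and 4.98 in control crypt cells. In crypt cells 1 of 10 was called lower, against 1.19% of all genes. This was Ccn2, with 6.99 in heme crypt against 8.08 in control crypt cells. The call was lost when 32 was added to the values before taking logs. It was also lost after centring on ribosomal protein genes, where 1 other gene of the list was called higher. The medians were 0.02 in surface and -0.51 in crypt cells, against -0.02 and 0.01 over all genes.

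**Figure D5:**
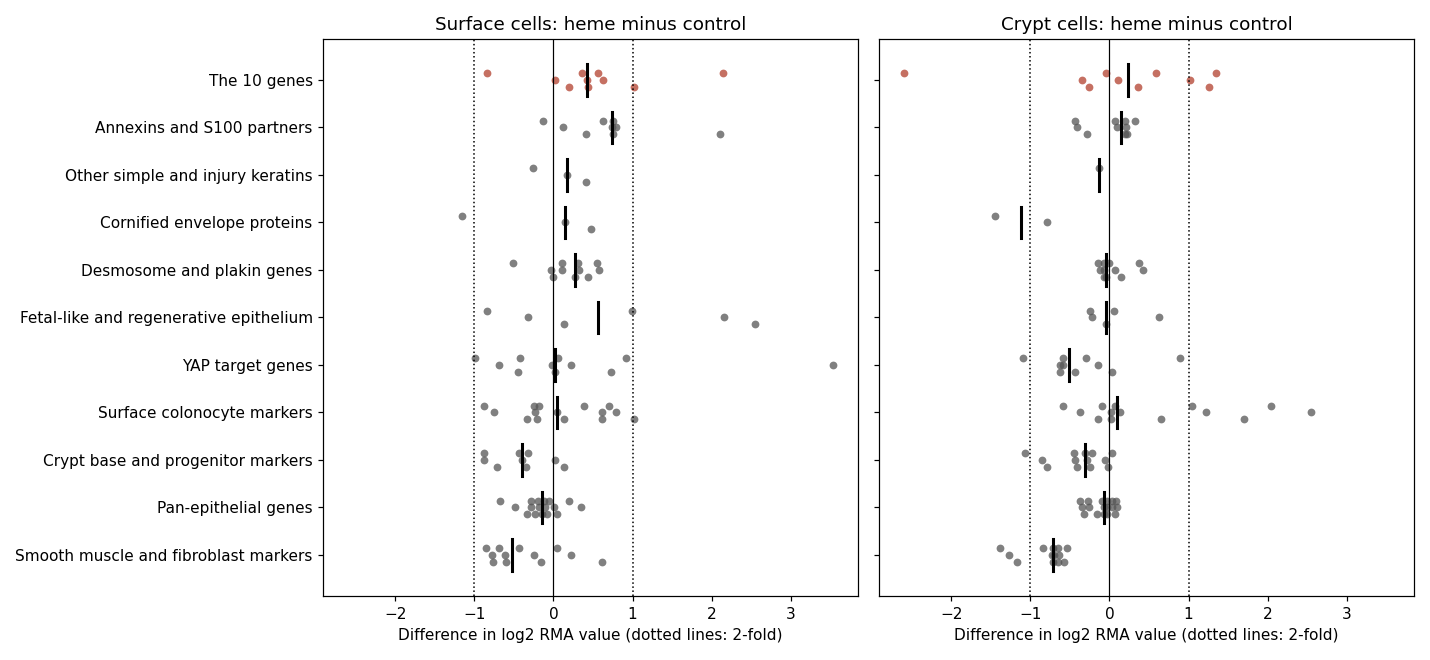
Heme minus control differences in log2 RMA values (horizontal axis) in surface cells (left) and crypt cells (right), 1 point per gene at or above the floor in that comparison, with the 10 genes in red, other lists in grey, black bars at the medians and dotted lines at 2-fold. The 10 genes have medians of 0.43 and 0.23, and smooth muscle and fibroblast markers lie below 0 in crypt cells, with a median of -0.72.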

How the data were processed

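Each of the 4 pools was measured on 1 Affymetrix array. The authors deposited 1 log2 value per probe set and array, from RMA per the submitters' processing notes, a method that corrects background, equalises the distributions of arrays and summarises probes. Its version, like any genome build, is not given in the sources used here. Equalised distributions hide any change in total RNA, and 1 array per group limits the precision of every value.

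Of 35556 probe sets, 21789 had 1 gene symbol in the platform annotation, 1621 had several and 12146 had none. Symbols were updated by gene identifier, with 21698 matched, and probe sets were averaged to 19938 genes. The 10 genes and 17 further lists (200 genes, 11 with no probe set of a single symbol) were chosen with earlier results of these data known. No test was run, since each group holds 1 array. The size rule was tried on simulated arrays with planted differences beyond 2-fold and an assumed noise. This gives no rate of false calls for these data. All 10 genes are named, and of each further list up to 4 genes with the largest differences could be named. Where other genes are named (Trp63, Krt17, Krt6a, Tgm1, Ivl, Sprr1b, Il33 and Msln), they were chosen after their values were seen. The 3 genes with the nearest profile to each of the 10 were also found, leaving out predicted genes, and 10 alternatives were run.

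Python 3.11.15, numpy 2.4.6, pandas 2.3.3, matplotlib 3.10.9 and, for cyclic loess, limma 3.58.1 under R 4.3.3 were used.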

Additional observations from a re-analysis of the deposited data

Results flagged for a closer look

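The heme differences of Plet1 had opposite signs in the 2 compartments. Plet1 was higher by 0.42 in heme than in control surface cells and differed by -2.60 between heme and control crypt cells, so the effects differed by 3.03 on the log2 scale. The same 3.03 separates its surface minus crypt difference on heme (0.81) from that on the control diet (-2.22). After centring on pan-epithelial genes the heme value was -0.38 and the control value -3.52. With 1 array per group this difference was not tested.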

How the results depend on the processing

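Of 300 values of single genes recomputed under another setting, 284 stayed on their side of the 2-fold size. The 300 include the choice of probe set, which could not change a value because each of the 10 genes had 1 probe set. Centring on pan-epithelial genes turned the surface minus crypt difference of Krt8 to -0.063 on heme and -0.26 on the control diet, of Krt19 to -0.031 on heme, and of Anxa1 to -0.21 on the control diet. Centring on ribosomal protein genes turned that of Clu on heme to 1.06. Both follow from the shift such centring gives all genes. For heme in surface cells, the number of the 10 genes called was 4 at 1.5-fold, 1 at 3-fold and 1 after cyclic loess, against 2, while 18.5%, 1.91% and 5.56% of all genes were called. For heme in crypt cells it was 1 at 3-fold, against 4, with 0.448% of all genes called. For surface against crypt on heme it was 4 at 3-fold, against 7, with 15.0% called. For the difference between the heme effects it was 4 at 1.5-fold and 1 at 3-fold, against 2, with 18.3% and 1.39% called. Removing the floor could not change these counts, since all 10 genes passed it. Nor could the choice of probe set, since each gene had 1. A floor of 7 left 2 higher and 1 lower for heme in crypt cells, against 3 and 1, with 3.46% of all genes called. It changed no other count, and including probe sets with several symbols changed none. No paired analysis was possible because the results come from no test, with 1 array per group, and the surface minus crypt differences are already taken within the animals of each diet. Values near the floor of 5.75, as for Clu and for Sprr1a in crypt cells, are the least certain.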
